A study of Mus musculus with 12 samples.

Results

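Angpt1 and Hgf encode secreted growth factors, and the chromatin around them was followed here through 104 accessible regions of the 188262 in the deposited table. A region was counted to a gene when it overlapped the gene's protein-coding RefSeq body (build GRCm38), or when that body was the nearest within 100 kb. This gave 78 regions to Angpt1 (gene ID 11600, chromosome 15, 42424667 to 42676977) and 26 to Hgf (gene ID 15234, chromosome 5, 16553495 to 16619439). The regions follow from position alone, but the pair of genes was chosen by accessibility values (CPM) of these same 12 libraries, with earlier results known, and which comparison led to the choice is not recorded. All values below are therefore a description of these loci, and the adjusted p-values show where a region stands among all regions of the table rather than independent evidence for the choice of genes.

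Angiopoietin-1, the product of Angpt1, is a ligand that activates the receptor tyrosine kinase Tie2 (gene Tek). In bone marrow, Tie2 signalling is known for its part in stem cell quiescence and in the stability of vessels. Hepatocyte growth factor, the product of Hgf, is secreted as an inactive precursor, is cut into its active form by serine proteases and activates the receptor tyrosine kinase MET. Open chromatin marks promoters and enhancers that may be in use, but accessibility is not expression, and a region assigned by distance is not shown to act on the gene.

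The assay was ATAC-seq. Its Tn5 transposase cuts open DNA and attaches adapters there, so read counts measure accessibility. There were 12 libraries from male mice in 4 groups of 3: KO MPP, WT MPP, KO LT-HSC and WT LT-HSC. Long-term haematopoietic stem cells (LT-HSC) sustain blood formation, and multipotent progenitors (MPP) are their early descendants. KO libraries are from mice with deleted Phf6 and a Cre recombinase that tamoxifen switches on (Phf6-/Y Rosa26+/Cre-ERT2), and WT libraries carry a floxed Phf6 allele without Cre (Phf6f/Y Rosa26+/+). The labels give 8 weeks after tamoxifen for both genotypes and 20000 sorted LT-HSC per library. The same protocol text stands on the MPP samples and does not mention their preparation. Only the KO mice carry Cre-ERT2, so what the recombinase does and what loss of Phf6 does cannot be told apart. Phf6 encodes a chromatin-associated zinc finger protein, and mutations of it occur in leukaemia.

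Total counts in regions ran from 22665988 to 48547234 per library, and replicates of a group differed by more than counting noise (chi-square per degree of freedom 1.57 to 3.26). Marker genes of the 2 populations went with their labels. The summed accessibility at the regions of 8 LT-HSC marker genes was 707 to 714 CPM in KO MPP and 660 to 691 CPM in WT MPP, against 1154 to 1162 CPM in KO LT-HSC and 1058 to 1077 CPM in WT LT-HSC. At 3 MPP marker genes it was 417 to 419 CPM in KO MPP and 417 to 418 CPM in WT MPP, against 260 to 264 CPM in KO LT-HSC and 245 to 251 CPM in WT LT-HSC. Stromal cells are a textbook source of both factors. The regions of 6 stromal marker genes summed to 238 to 253 CPM in KO MPP, 248 to 251 CPM in WT MPP, 262 to 263 CPM in KO LT-HSC and 254 to 265 CPM in WT LT-HSC. The single genes went different ways. The log2 fold changes of MPP over LT-HSC in KO and WT were 0.54 and 0.63 at Pdgfrb. They were -1.01 and -1.03 at Prrx1, -0.76 and -0.61 at Lepr, and -0.27 and -0.35 at Foxc1. Pdgfra (-0.08 and -0.20) and Col1a1 (0.004 and 0.02) differed less. All 6 had a region at a gene end, and none of these was at 0 in any library. The share of counts in regions at gene ends (at most 1 kb from an end) was 41.0% to 41.4% in KO MPP, 39.2% to 41.0% in WT MPP, 39.2% to 39.6% in KO LT-HSC and 37.8% to 38.9% in WT LT-HSC. A fit with this share as a covariate ended many calls, which are named with the regions below.

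The start of Hgf is shown because the peak that covers it, 1 of the 4 strongest of the locus, passed in no comparison, while the region next to it did. RefSeq (GRCm38.p6) gives 2 start sites for Hgf on the plus strand. The 250 bases before the first of them lie at chr5:16553245-16553494, wholly inside region 11 of Hgf, and read as follows, with the matches to searched motifs in capitals.
Hgf promoter: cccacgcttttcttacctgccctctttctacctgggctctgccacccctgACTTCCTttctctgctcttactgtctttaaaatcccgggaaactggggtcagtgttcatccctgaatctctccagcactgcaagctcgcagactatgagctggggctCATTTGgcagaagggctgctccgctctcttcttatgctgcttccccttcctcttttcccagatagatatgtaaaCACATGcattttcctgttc
The capitals mark 1 match to the ETS motif AGGAAGT on the opposite strand and 2 matches to the E-box, spelled CANNTG. Both strands were searched, and no match overlaps another. Of the 32851 promoter windows in the table, 7.69% hold that ETS motif and 66.2% an E-box. The other motifs had no match in this window. They were the GATA motif, spelled AGATAA, which 9.99% of windows hold. The RUNX motif was searched as TGTGGT and is in 14.0% of them. The AP-1 motif was searched as TGANTCA and is in 6.75%. A shorter ETS form was searched as CCGGAA and is in 12.03%. The GC box was searched as GGGCGG and is in 32.7%. The cyclic AMP response element was searched as TGACGT and is in 6.47%. The TATA box was searched as TATAAA and is in 12.4%. Motif matches are a description and not binding sites. The window had a GC content of 50.8%. Angpt1 has no promoter window in the RefSeq table used.

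The 2 loci differ in layout. Angpt1 has a long body of 252 kb, and 67 of its 78 regions overlapped it. Hgf has a body of 65.9 kb with 6 regions, and its other 20 lay outside. Regions were 402 to 2115 bp long at Angpt1 and 402 to 690 bp at Hgf. Levels are in CPM, which is counts scaled to the same library size with TMM factors, and are given with SD and n = 3 libraries. Most regions were weak: the median over the regions of the mean of the 12 libraries was 1.01 CPM at Angpt1 and 1.47 CPM at Hgf, with 38 Angpt1 and 11 Hgf regions under 1 CPM. The 4 strongest regions held 32.6% of the summed level at Angpt1 and 55.4% at Hgf. Regions are numbered within each gene from low to high coordinate.

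Summed over all regions of a gene, accessibility at Angpt1 was lower in MPP than in LT-HSC, and accessibility at Hgf was higher in MPP. Angpt1 summed to 157, 171 and 170 CPM in KO MPP, against 191, 215 and 195 CPM in KO LT-HSC. It summed to 142, 143 and 148 CPM in WT MPP, against 190, 174 and 185 CPM in WT LT-HSC. In each genotype every MPP library was below every LT-HSC library. The regions of 4 megakaryocyte marker genes had the same direction, with 255 to 259 CPM in KO MPP against 340 to 358 CPM in KO LT-HSC, and 223 to 241 CPM in WT MPP against 320 to 327 CPM in WT LT-HSC. Lists of 4 endothelial and 4 B cell marker genes were also lower in MPP. In KO they summed to 228 to 237 and 147 to 151 CPM in MPP, against 296 to 304 and 167 to 173 CPM in LT-HSC. In WT they summed to 231 to 246 and 154 to 155 CPM in MPP, against 291 to 302 and 163 to 168 CPM in LT-HSC. The part of any such cells in the result was not tested. The log2 fold changes of MPP over LT-HSC were -0.27 ± 0.04 in KO and -0.35 ± 0.04 in WT (SE, edgeR fit of counts summed per gene). Of all genes, 34.9% passed as lower and 37.8% as higher in KO (72.6% either way), and 36.9% and 36.7% in WT (73.5%).

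Hgf summed to 97.4, 101 and 105 CPM in KO MPP, against 60.4, 62.5 and 62.4 CPM in KO LT-HSC. It summed to 80.0, 79.3 and 84.2 CPM in WT MPP, against 59.1, 55.8 and 53.0 CPM in WT LT-HSC. The 4 groups did not overlap, and their order from high to low was KO MPP, WT MPP, KO LT-HSC and WT LT-HSC. The gene-end regions of 6 neutrophil and monocyte marker genes were also higher in MPP, at 35.1 to 40.6 CPM in KO MPP against 11.99 to 13.1 CPM in KO LT-HSC, and 30.4 to 35.8 CPM in WT MPP against 10.4 to 12.4 CPM in WT LT-HSC. Over all regions of these genes the contrast was smaller. The sums were 119 to 133 CPM in KO MPP against 87.2 to 90.3 CPM in KO LT-HSC. In WT they were 119 to 131 CPM in MPP against 87.6 to 93.9 CPM in LT-HSC. Within that list, the summed regions of Ly6g went the other way, at -0.50 in KO and -0.45 in WT. The regions of 4 T cell marker genes were higher in MPP too, at 82.3 to 95.4 CPM in KO MPP against 68.4 to 72.9 CPM in KO LT-HSC. In WT they held 83.7 to 93.4 CPM in MPP against 61.9 to 66.9 CPM in LT-HSC. The part of these cell types in the result was not tested. The log2 fold changes of MPP over LT-HSC were 0.72 ± 0.04 in KO and 0.53 ± 0.04 in WT. Per kb of accessible sequence, the level was 8.23 CPM at Hgf and 3.96 CPM at Angpt1 in KO MPP, and 6.59 and 3.43 CPM in WT MPP. In LT-HSC it was 5.02 CPM at Hgf and 4.78 CPM at Angpt1 in KO, and 4.55 and 4.36 CPM in WT. In such bulk libraries, fewer cells with an open region and less opening per cell cannot be told apart.

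**Figure D1:**
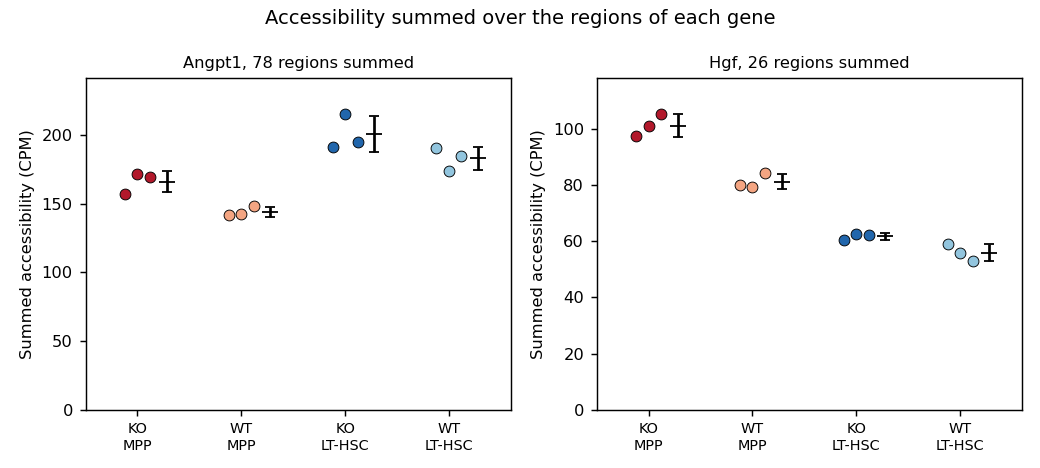
Summed accessibility in CPM at Angpt1 (78 regions) and Hgf (26 regions) in each of the 12 libraries. Points are libraries, and the bars beside them are the mean and SD of 3. Angpt1 lies lower in MPP than in LT-HSC and Hgf higher, and the KO libraries lie above the WT libraries of the same population, which do not overlap them.

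At the level of single regions, most of Angpt1 was less accessible in MPP than in LT-HSC, with a minority going the other way. In KO, 48 of the 78 regions passed as lower and 10 as higher in MPP. In WT the counts were 48 lower and 12 higher. Over all 186373 tested regions, 34.4% passed as lower and 33.3% as higher in KO, and 35.2% and 34.6% in WT, which is 67.7% either way in KO and 69.8% in WT. MPP libraries lay wholly below LT-HSC libraries at 48 Angpt1 regions in KO and 50 in WT and wholly above at 10 and 12, beside 35.9% and 35.4% and 35.2% and 35% of all tested regions. These shares of all regions are the background for the counts, from which nothing is read about a pair of genes chosen with results known. The median log2 fold change of the Angpt1 regions was -0.85 in KO and -1.01 in WT, against 0.00 and 0.01 over all tested regions. The same direction passed in both genotypes at 44 lower and 10 higher regions, no region passed in opposite directions, and 14 passed in neither.

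The losses were densest in the middle of the gene. Angpt1 is transcribed from its upper-coordinate end, and in steps of 50 kb into the body from that end there were 16, 15, 16, 12 and 8 regions. From 100 to 150 kb, 15 of 16 regions passed as lower in MPP and none as higher, in KO and in WT alike, with median log2 fold changes of -1.55 in KO and -1.41 in WT. From 150 to 200 kb, 5 of 12 passed as higher and 5 as lower in each genotype. Regions more open in MPP and regions more open in LT-HSC lay side by side in that stretch. With the share of counts at gene ends in the model, 31 Angpt1 regions passed in KO and 33 in WT, and the summed value in KO was -0.13 (adjusted p = 0.135 in the same edgeR quasi-likelihood test).

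**Figure D2:**
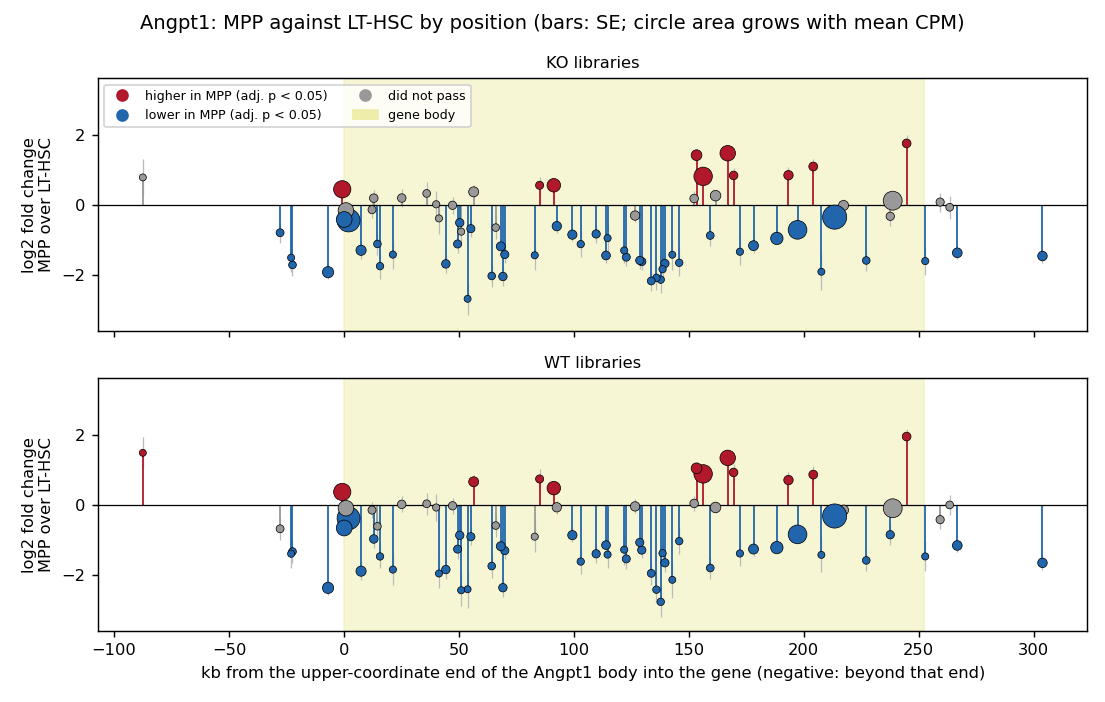
Log2 fold change of MPP over LT-HSC at each Angpt1 region in KO (top) and WT (bottom), against its distance in kb from the upper-coordinate end of the gene body. Bars are SE, circle area grows with mean CPM, and the shaded span is the gene body. From 100 to 150 kb, 15 of 16 regions were lower in MPP, and from 150 to 200 kb higher and lower regions are mixed.

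The clearest LT-HSC region of Angpt1 lay 6638 bp beyond the upper end of the body. This region, number 74 (chromosome 15, 42683615 to 42684209), held 1.09, 1.33 and 1.81 CPM in KO MPP, against 5.01, 5.66 and 5.83 CPM in KO LT-HSC. It held 0.877, 0.771 and 0.744 CPM in WT MPP, against 5.11, 2.87 and 4.54 CPM in WT LT-HSC. MPP libraries were lower throughout, and the log2 fold changes of MPP over LT-HSC were -1.93 ± 0.19 in KO and -2.38 ± 0.20 in WT. Inside the gene, region 48 (42607512 to 42608194) averaged 0.418 ± 0.175 CPM in KO MPP and 1.78 ± 0.098 CPM in KO LT-HSC. It averaged 0.375 ± 0.150 CPM in WT MPP and 1.88 ± 0.409 CPM in WT LT-HSC. Region 69 (42669286 to 42669826), 7.42 kb inside the upper end, averaged 1.38 ± 0.465 CPM in KO MPP and 3.44 ± 1.58 CPM in KO LT-HSC, and 0.856 ± 0.227 CPM in WT MPP and 3.12 ± 0.160 CPM in WT LT-HSC. Its KO LT-HSC libraries were uneven, at 3.50, 4.99 and 1.83 CPM. In the covariate fit, the KO differences of regions 48 and 69 between populations no longer passed, at -1.05 against -2.05 and at -0.62 against -1.30 without it (adjusted p = 0.0736 and 0.258 in the edgeR quasi-likelihood test).

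The regions of Angpt1 that were more open in MPP included some of its stronger ones. Region 20 (42509810 to 42510294) held 10.2, 8.44 and 11.5 CPM in KO MPP, against 3.44, 3.40 and 4.14 CPM in KO LT-HSC. It held 10.8, 8.73 and 9.78 CPM in WT MPP, against 3.93, 2.95 and 4.75 CPM in WT LT-HSC. MPP libraries were higher in both genotypes, with log2 fold changes of 1.47 ± 0.14 in KO and 1.33 ± 0.14 in WT. Region 24 (42523408 to 42523815) averaged 4.01 ± 0.604 CPM in KO MPP and 1.49 ± 0.461 CPM in KO LT-HSC, and 3.28 ± 0.408 CPM in WT MPP and 1.604 ± 0.366 CPM in WT LT-HSC. Region 6 (42431991 to 42432444), near the lower end of the body, averaged 1.88 ± 0.182 CPM in KO MPP and 0.558 ± 0.196 CPM in KO LT-HSC. In WT it averaged 2.05 ± 0.175 CPM in MPP and 0.533 ± 0.115 CPM in LT-HSC.

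The strongest regions and the gene ends of Angpt1 differed less between the populations. Region 11 (42463298 to 42463782), deep in the body, had the highest mean level, with 17.2 ± 1.27 CPM in KO MPP and 22.0 ± 1.23 CPM in KO LT-HSC, and 15.4 ± 2.26 CPM in WT MPP and 19.4 ± 0.791 CPM in WT LT-HSC. Region 70 (42674783 to 42675196), 1.99 kb inside the upper end, came next, at 13.8 ± 0.304 CPM in KO MPP and 18.9 ± 0.512 CPM in KO LT-HSC, and 14.6 ± 1.67 CPM in WT MPP and 19.1 ± 0.697 CPM in WT LT-HSC. Its log2 fold changes of MPP over LT-HSC were -0.45 ± 0.08 in KO and -0.39 ± 0.08 in WT. Of the 4 regions at gene ends, region 72 (42676673 to 42677133) spans the upper end itself. It averaged 6.12 ± 0.177 CPM in KO MPP and 8.17 ± 0.607 CPM in KO LT-HSC, and 5.55 ± 0.411 CPM in WT MPP and 8.77 ± 0.571 CPM in WT LT-HSC. Region 73 beside it (42677322 to 42678176) went the other way, with 10.9 ± 0.634 CPM in KO MPP and 7.98 ± 0.848 CPM in KO LT-HSC, and 9.23 ± 0.223 CPM in WT MPP and 7.18 ± 0.183 CPM in WT LT-HSC. Region 71 (42675910 to 42676381) passed in neither genotype, with log2 fold changes of -0.17 ± 0.11 in KO and -0.10 ± 0.11 in WT. Region 5 (42423931 to 42424332), at the lower end, held 0.742 CPM or less on average in every group. In the covariate fit, the population calls of regions 5 and 70 ended in both genotypes, that of region 72 in KO and that of region 73 in WT. Region 70 then stood at -0.24 in KO and -0.19 in WT.

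At Hgf the direction was reversed, and the largest differences were at regions with few reads in LT-HSC. In KO, 17 of the 26 regions passed as higher in MPP and 2 as lower, and in WT 16 passed as higher and 4 as lower, beside the shares of all regions given above for Angpt1. The median log2 fold change was 1.17 in KO and 1.03 in WT. Of the 10 regions beyond the upper-coordinate end of the body, 8 passed as higher in KO and 7 in WT, and none as lower. Over the 6 regions that overlap the body alone, 2 passed in KO and 3 in WT, the median log2 fold change in WT was -0.11, and the summed value in WT was 0.04 (adjusted p = 0.655, edgeR's quasi-likelihood test).

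Several Hgf regions were close to unread in LT-HSC. Region 19 (chromosome 5, 16650231 to 16650671), 30792 bp beyond the body, held 3.94, 4.49 and 5.23 CPM in KO MPP, against 0.193, 0.389 and 0.134 CPM in KO LT-HSC. It held 3.08, 2.88 and 3.15 CPM in WT MPP, against 0.258, 0.281 and 0.145 CPM in WT LT-HSC. The LT-HSC values rest on 3 to 11 reads per library, and the log2 fold changes were 4.23 ± 0.25 in KO and 3.71 ± 0.25 in WT. Region 15 (16572406 to 16573095), 19.3 kb into the body, averaged 4.80 ± 0.624 CPM in KO MPP and 0.435 ± 0.101 CPM in KO LT-HSC, and 3.07 ± 0.455 CPM in WT MPP and 0.238 ± 0.0565 CPM in WT LT-HSC. Region 8 (16541773 to 16542235), 11260 bp before the start, averaged 5.78 ± 0.605 CPM in KO MPP and 0.561 ± 0.325 CPM in KO LT-HSC, and 3.56 ± 0.421 CPM in WT MPP and 0.353 ± 0.0487 CPM in WT LT-HSC. Region 7 (16540210 to 16540611) had the same direction at a lower level, with log2 fold changes of 3.42 ± 0.35 in KO and 2.07 ± 0.37 in WT on 3 to 6 reads per LT-HSC library.

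**Figure D3:**
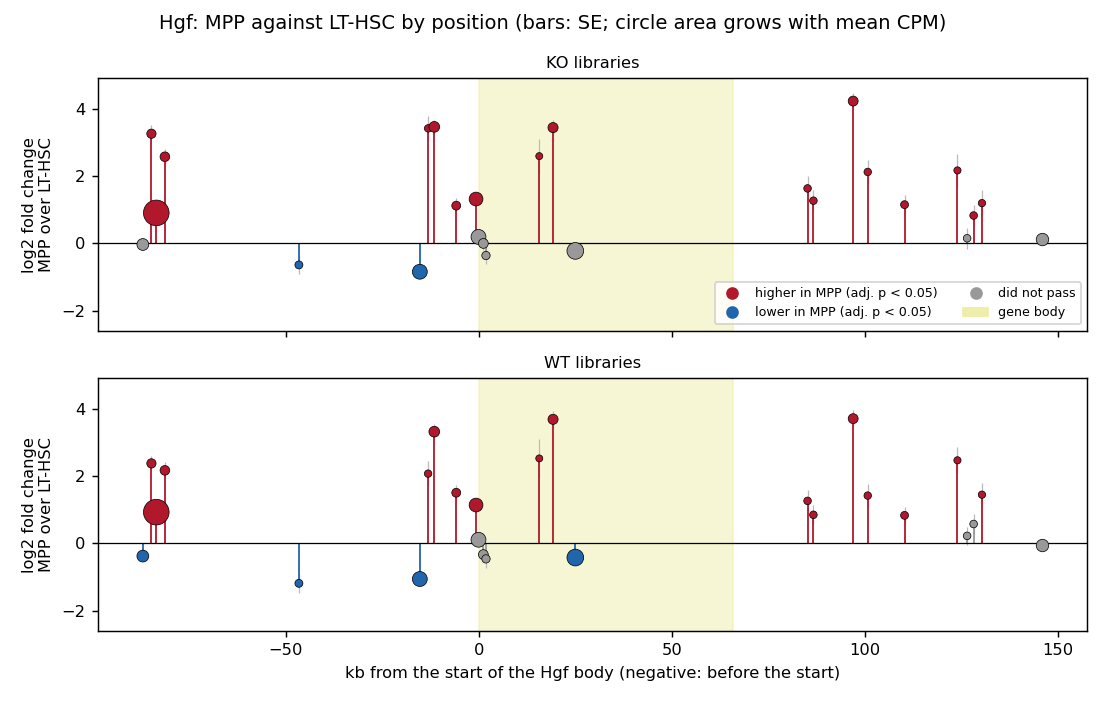
Log2 fold change of MPP over LT-HSC at each Hgf region in KO (top) and WT (bottom), against its distance in kb from the start of the gene body. Bars are SE, circle area grows with mean CPM, and the shaded span is the gene body. Of the 26 regions, 17 in KO and 16 in WT were higher in MPP, and region 11 at the start lies near 0, while region 10 just before it was higher in MPP.

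The strongest region of the Hgf locus lay far before the gene. Region 3 (16469806 to 16470266), 83229 bp before the start, held 29.7, 27.3 and 25.7 CPM in KO MPP, against 13.7, 15.4 and 15.2 CPM in KO LT-HSC. It held 27.0, 28.8 and 26.4 CPM in WT MPP, against 14.0, 14.0 and 15.3 CPM in WT LT-HSC. MPP libraries were higher in both genotypes by log2 fold changes of 0.90 ± 0.08 in KO and 0.93 ± 0.08 in WT. Region 4 (16472061 to 16472468), a few kb nearer to the gene, averaged 3.99 ± 0.646 CPM in KO MPP and 0.708 ± 0.280 CPM in KO LT-HSC, and 2.15 ± 0.477 CPM in WT MPP and 0.466 ± 0.142 CPM in WT LT-HSC.

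The promoter of Hgf printed above was open at like levels in all groups. Region 11 (16553230 to 16553670) held 6.74, 6.62 and 7.66 CPM in KO MPP, 5.64, 5.50 and 7.04 CPM in WT MPP, 5.62, 6.51 and 6.41 CPM in KO LT-HSC and 5.79, 5.90 and 5.04 CPM in WT LT-HSC. The groups overlapped in the comparison of the genotypes in each population and in that of the populations in WT. In KO, every MPP library lay above every LT-HSC library, narrowly, and this difference did not pass either. The log2 fold changes of MPP over LT-HSC were 0.19 ± 0.12 in KO and 0.11 ± 0.12 in WT. Region 6 (16538016 to 16538510) lay 14985 bp before the start and a few kb from the MPP regions 7 and 8. Of the 2 Hgf regions that passed as lower in MPP in both genotypes, it was the stronger. It held 4.95, 5.53 and 5.63 CPM in KO MPP, against 10.05, 9.20 and 9.84 CPM in KO LT-HSC. It held 3.41, 3.36 and 2.67 CPM in WT MPP, against 8.55, 6.15 and 5.21 CPM in WT LT-HSC.

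The comparison of KO with WT asked how loss of Phf6 changes these loci. In KO MPP, the summed accessibility of both genes rose over WT MPP. The log2 fold change of KO over WT was 0.32 ± 0.04 at Hgf (adjusted p = 4.31e-05, edgeR's quasi-likelihood test over 18495 genes) and 0.21 ± 0.04 at Angpt1 (adjusted p = 0.00183). In LT-HSC it was 0.14 ± 0.04 at Hgf (adjusted p = 0.0369) and 0.13 ± 0.04 at Angpt1 (adjusted p = 0.0447), just under the threshold. Among all genes so tested, 14.6% passed as higher and 13.3% as lower in MPP (27.9% either way), and 7.67% and 8.5% in LT-HSC (16.2%). KO and WT libraries did not overlap in these 4 comparisons. Summed marker lists of several cell types moved with this result, though not every list or every gene in them did. The B cell list was lower in KO MPP, at 147 to 151 CPM against 154 to 155 CPM in WT MPP. The endothelial list overlapped between genotypes in both populations. The regions of the 4 megakaryocyte marker genes summed higher in KO without overlap, at the values given above, and those of the 8 LT-HSC marker genes did too. In LT-HSC, Mecom, Mllt3, Procr and Ctnnal1 changed by 0.11, 0.13, 0.10 and 0.01 in KO over WT. Hlf, Fgd5, Hoxb5 and Slamf1 changed by -0.05, -0.04, -0.11 and -0.06, and the first 3 of these were lower in KO MPP too. Of the megakaryocyte genes in LT-HSC, Pf4 and Itga2b changed by 0.13 and 0.10, and Gp1ba and Vwf by -0.07 and -0.002. Those of 4 erythroid marker genes held 109 to 113 CPM in KO MPP against 94.8 to 101 CPM in WT MPP, and 108 to 114 CPM in KO LT-HSC against 98.4 to 104 CPM in WT LT-HSC. The gene-end regions of the 6 stromal marker genes also summed higher in KO, with 41.5 to 48.0 CPM in KO MPP against 36.6 to 37.3 CPM in WT MPP, and 54.3 to 55.6 CPM in KO LT-HSC against 42.8 to 52.2 CPM in WT LT-HSC. Over all regions of the stromal genes the sums overlapped between genotypes, and the part of any of these cells in the result was not tested. The MPP calls were kept in all 15 alternatives. The LT-HSC call of Angpt1 ended without WT LT-HSC 2, WT LT-HSC 3, KO LT-HSC 2 or KO LT-HSC 3 (lowest log2 fold change 0.08) and that of Hgf without any 1 library except WT LT-HSC 1 (lowest 0.10). Both LT-HSC calls also ended over the regions that overlap the body alone (adjusted p = 0.0933 at Angpt1 and 0.301 at Hgf, the same edgeR test). That of Angpt1 ended too with a minimum of 1 CPM in 3 libraries (adjusted p = 0.0519, the same test).

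Over single regions, all calls at both genes were of more accessibility in KO. In MPP, 10 of 26 Hgf regions and 9 of 78 Angpt1 regions passed as higher and none as lower, while 5.12% of all tested regions passed as higher and 3.59% as lower (8.71% either way). In LT-HSC, 2 Hgf and 5 Angpt1 regions passed as higher and none as lower, against 3.27% and 1.47% of all tested regions (4.74% either way). The median log2 fold change in MPP was 0.46 at Hgf and 0.31 at Angpt1, and in LT-HSC 0.11 at Hgf and 0.22 at Angpt1, against -0.01 in MPP and 0.00 in LT-HSC over all tested regions. KO libraries lay wholly above WT libraries at 10 Hgf and 19 Angpt1 regions in MPP, and at 6 and 16 in LT-HSC, beside 14.4% of all tested regions in MPP and 13.4% in LT-HSC. KO libraries lay wholly below at 2 Hgf and 0 Angpt1 regions in MPP and at 0 and 2 in LT-HSC, beside 13.6% and 10.8%. Of the calls over all regions, 58.8% were higher in KO in MPP and 69.0% in LT-HSC, and under total-count scaling 47.8% and 45.2%. Once the share at gene ends was a term of the model, there were 4 calls at Hgf and 5 at Angpt1 in MPP and 0 at both genes in LT-HSC. Without 1 library, the MPP counts fell to 6 at Hgf and 2 at Angpt1 without KO MPP 2, to 5 and 2 without KO MPP 3, and to 5 at Angpt1 without WT MPP 1 or WT MPP 2. In LT-HSC they were 1 to 3 at Angpt1 without any 1 of the 6 libraries, and 1 at Hgf without WT LT-HSC 1, WT LT-HSC 3, KO LT-HSC 1 or KO LT-HSC 2.

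**Figure D4:**
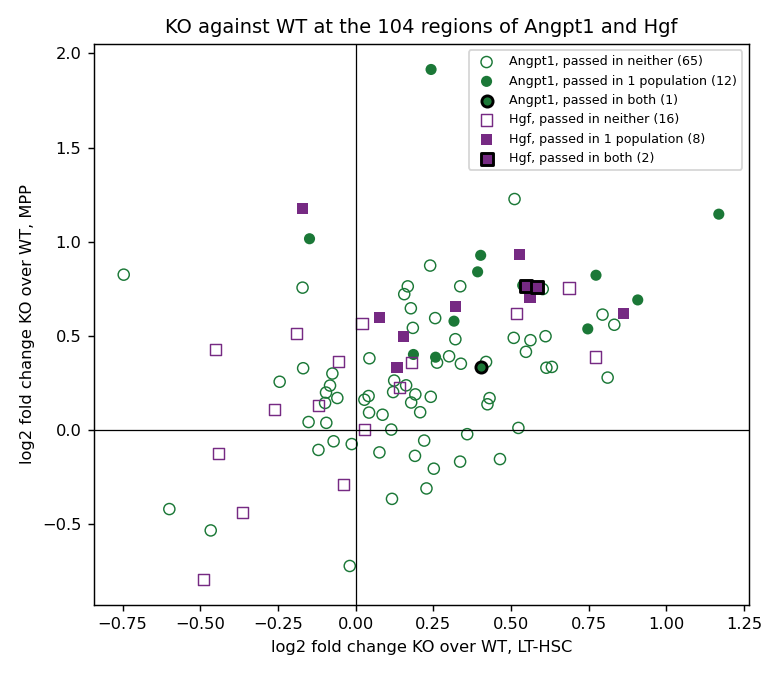
Log2 fold change of KO over WT in LT-HSC (horizontal) and in MPP (vertical) for each of the 104 regions. Circles are Angpt1 and squares are Hgf; open symbols passed in neither population, filled ones in 1 and outlined filled ones in both. All 23 regions that passed were higher in KO in the population where they passed, and 1 Angpt1 and 2 Hgf regions passed in both.

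The clearest genotype difference was at the region just before the start of Hgf, next to the promoter peak that did not pass. Region 10 (16552593 to 16553041), 454 bp before the body, held 9.24, 8.49 and 9.41 CPM in KO MPP, against 5.24, 4.98 and 5.85 CPM in WT MPP. It held 3.22, 4.42 and 3.25 CPM in KO LT-HSC, against 2.04, 2.81 and 2.40 CPM in WT LT-HSC. KO was above WT without overlap in both populations. The log2 fold changes of KO over WT were 0.76 ± 0.12 in MPP (adjusted p = 0.000193, the same test over all regions) and 0.58 ± 0.15 in LT-HSC (adjusted p = 0.0207). At the promoter region 11 they were 0.22 ± 0.11 (adjusted p = 0.223) and 0.14 ± 0.12 (adjusted p = 0.547). The call of region 10 in MPP was kept in all 14 alternatives, and that in LT-HSC ended without WT LT-HSC 1 or KO LT-HSC 2 (lowest log2 fold change 0.42) and in the covariate fit (0.60, adjusted p = 0.103).

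Region 6 of Hgf, whose values are given above, also rose in both populations, with log2 fold changes of KO over WT of 0.76 ± 0.14 in MPP (adjusted p = 0.00113) and 0.55 ± 0.13 in LT-HSC (adjusted p = 0.0107). The LT-HSC call ended without WT LT-HSC 3 or KO LT-HSC 1 (lowest log2 fold change 0.40) and in the covariate fit (0.55, adjusted p = 0.125). Regions 4, 7 and 8, which were more open in MPP than in LT-HSC, rose in KO MPP by log2 fold changes of 0.93 ± 0.19 (adjusted p = 0.00212), 1.17 ± 0.25 (adjusted p = 0.00312) and 0.70 ± 0.15 (adjusted p = 0.00326). Regions 15 and 19 rose by 0.62 ± 0.15 and 0.60 ± 0.15. The call of region 15 ended without KO MPP 3, and that of region 19 without WT MPP 2, KO MPP 2 or KO MPP 3. The covariate fit ended the calls of regions 8 (0.66, adjusted p = 0.0785), 15 (0.38, adjusted p = 0.314) and 19 (0.63, adjusted p = 0.104), while regions 4, 6, 7 and 10 kept theirs in MPP. The strongest region, number 3, did not pass in either population, with 0.00 ± 0.07 in MPP and 0.03 ± 0.08 in LT-HSC. The other 3 regions that passed in KO MPP, numbers 1, 12 and 16, had adjusted p-values from 0.0316 to 0.0453, and their calls ended in 5, 8 and 8 of 14 alternatives.

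At Angpt1 the genotype calls were closer to the threshold. Region 2 (42409809 to 42410580), 14087 bp beyond the lower end of the body, held 3.30, 3.08 and 3.70 CPM in KO LT-HSC, against 1.81, 1.97 and 2.20 CPM in WT LT-HSC. The libraries did not overlap, and the log2 fold change of KO over WT was 0.75 ± 0.16 (adjusted p = 0.00662). The call was kept without any 1 library but ended in the covariate fit (0.64, adjusted p = 0.172). In MPP it held 1.17, 1.14 and 1.54 CPM in KO and 0.952, 0.855 and 0.846 CPM in WT, a log2 fold change of 0.54 ± 0.20 that did not pass (adjusted p = 0.0939).

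Region 23 of Angpt1 (42520341 to 42521164) passed in both populations. It held 15.2, 13.7 and 15.1 CPM in KO MPP, against 11.6, 11.3 and 11.97 CPM in WT MPP, and 7.24, 9.16 and 8.86 CPM in KO LT-HSC, against 6.83, 5.65 and 6.48 CPM in WT LT-HSC. KO libraries were above WT libraries in each population, with log2 fold changes of 0.33 ± 0.09 in MPP (adjusted p = 0.0222) and 0.40 ± 0.11 in LT-HSC (adjusted p = 0.0231). The MPP call ended without WT MPP 1, WT MPP 2, KO MPP 1 or KO MPP 3 (lowest log2 fold change 0.31). The LT-HSC call ended without WT LT-HSC 2, KO LT-HSC 2 or KO LT-HSC 3 (lowest 0.33), under total-count scaling and in the covariate fit (0.49, adjusted p = 0.0563).

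The other Angpt1 regions that passed in LT-HSC, numbers 32, 36 and 37, were weak peaks in the middle of the body. They averaged 1.67, 1.62 and 0.877 CPM in KO LT-HSC, against 0.877, 0.952 and 0.382 CPM in WT LT-HSC, and the calls of 36 and 37 ended without any 1 of the 6 LT-HSC libraries. That of 32 ended without WT LT-HSC 1, WT LT-HSC 2, KO LT-HSC 2 or KO LT-HSC 3, and all 3 ended in the covariate fit. In MPP, the widest region, number 16 (42487619 to 42489733, 2115 bp), averaged 2.99 ± 0.112 CPM in KO and 1.995 ± 0.280 CPM in WT, a log2 fold change of 0.58 ± 0.15 (adjusted p = 0.012) whose call ended without WT MPP 1 or KO MPP 2. Region 55 (42625806 to 42626207) had the largest log2 fold change, 1.91 ± 0.50 (adjusted p = 0.0142), at 0.373 ± 0.114 CPM in KO MPP and 0.0907 ± 0.0201 CPM in WT MPP, and its call ended without KO MPP 3 and in the covariate fit (adjusted p = 0.0663). Region 74, the LT-HSC region beyond the upper end, rose in KO MPP by 0.84 ± 0.24 (adjusted p = 0.0242), a call that ended without WT MPP 2, WT MPP 3, KO MPP 2 or KO MPP 3. The lowest adjusted p of Angpt1 in MPP was at region 67, with a log2 fold change of 1.02 (adjusted p = 0.0109, edgeR's quasi-likelihood test). Its call ended without KO MPP 2 or KO MPP 3 and in the covariate fit. Regions 8, 13, 7 and 14 also passed in MPP, by 0.93, 0.77, 0.40 and 0.39. Their calls were kept in 6 of 13, 11 of 14, 10 of 14 and 11 of 14 alternatives. None of the 4 gene-end regions of Angpt1 passed in either population.

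**Figure D5:**
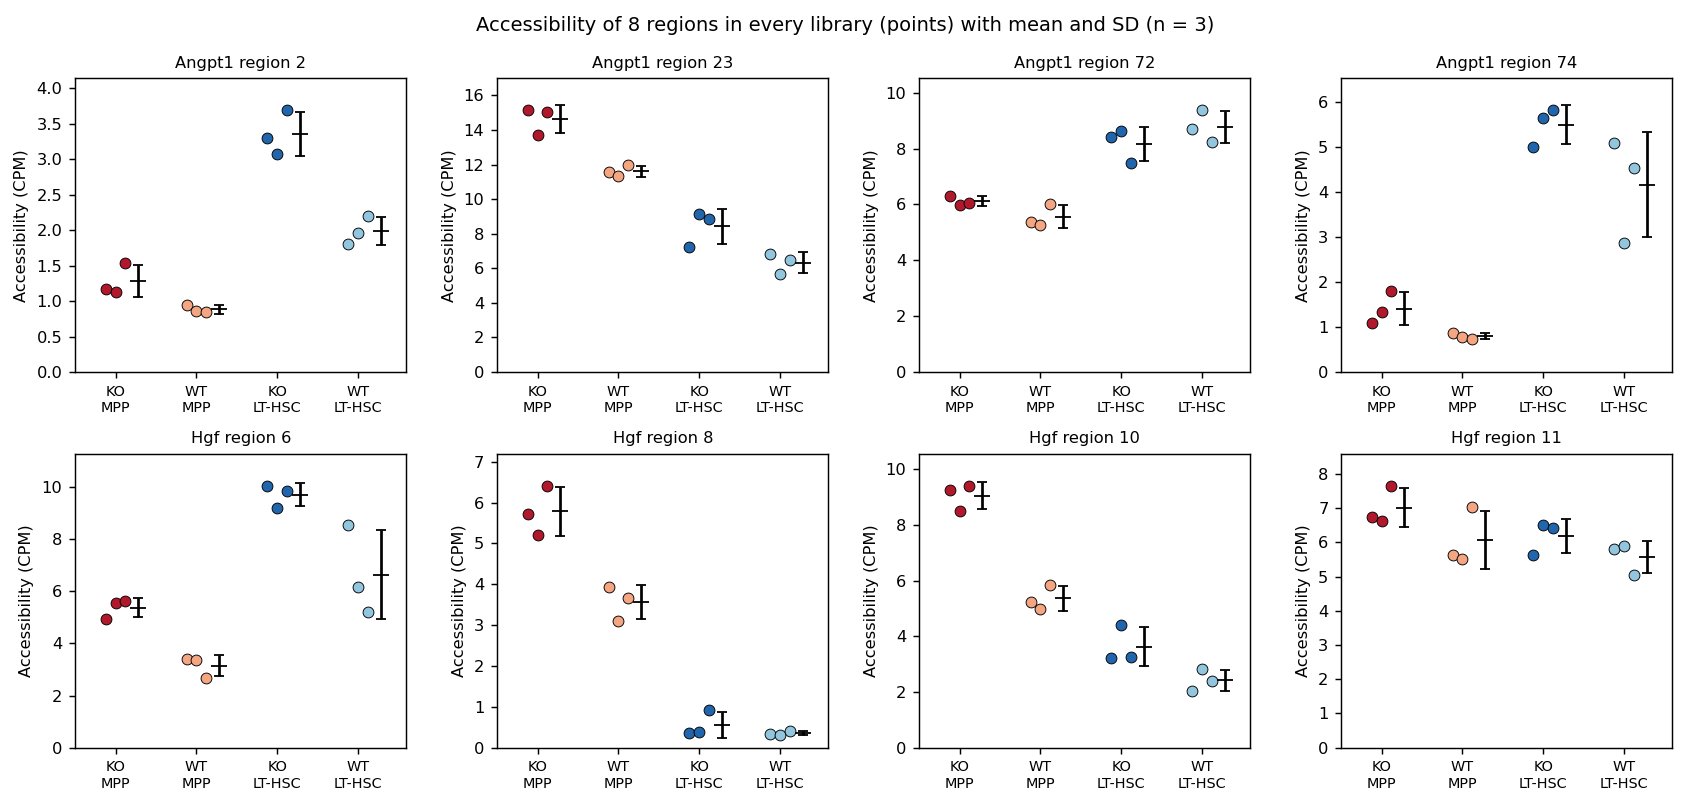
Accessibility in CPM at 4 Angpt1 and 4 Hgf regions in each library (points), with mean and SD of 3 libraries beside them. KO MPP lies above WT MPP at Hgf regions 6, 8 and 10, while Hgf region 11, which holds the printed promoter, and Angpt1 region 72, which spans the upper end of that gene, passed in neither genotype comparison.

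The effect of KO in MPP was set against that in LT-HSC by the interaction of genotype and population. No region of either gene passed (lowest adjusted p = 0.44 at Angpt1 and 0.619 at Hgf), and 0.00805% of all tested regions did. At an unadjusted p under 0.05 there were 4 of 78 Angpt1 and 2 of 26 Hgf regions, beside 14082 of all 186373. DESeq2 called 0 regions at either gene, but it gave no adjusted p to 135049 regions of the table. Regions among those could not be called, so nothing is concluded from the 0. For summed counts the interaction was 0.18 ± 0.06 at Hgf (adjusted p = 0.283) and 0.08 ± 0.06 at Angpt1 (adjusted p = 0.706), where 0.0216% of all genes passed. A larger effect of KO in MPP than in LT-HSC was therefore not shown at these genes.

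The rule's edges gave the following values. At Angpt1 the farthest region kept below the body, 51.3 kb away, averaged 0.913 ± 0.176 CPM in KO MPP, 0.851 ± 0.181 CPM in WT MPP, 2.48 ± 0.435 CPM in KO LT-HSC and 2.76 ± 0.222 CPM in WT LT-HSC. The next one out, 111 kb away and assigned to no gene, averaged 0.727 ± 0.0636, 0.690 ± 0.239, 0.189 ± 0.0479 and 0.247 ± 0.0558 CPM in the same order of groups. On the upper side, the region kept at 87.3 kb averaged 0.382, 0.584, 0.210 and 0.210 CPM, and the next, at 173 kb, 2.15, 2.43, 3.25 and 3.75 CPM. At Hgf the region kept at 86.7 kb before the start averaged 3.71, 2.62, 3.84 and 3.44 CPM, and the next, at 106 kb and nearer to Cacna2d1, 0.857, 0.794, 0.180 and 0.144 CPM. Beyond the end of Hgf, the region kept at 79.8 kb averaged 4.51, 3.50, 4.15 and 3.67 CPM, and the next, at 173 kb and assigned to the predicted gene Gm28710, 0.156, 0.179, 1.73 and 1.44 CPM.

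The neighbouring genes did not share one pattern with the members. Rspo2, which encodes an R-spondin that enhances Wnt signalling and lies 344 kb above Angpt1, summed to 11.95 ± 0.656 CPM in KO MPP and 30.4 ± 1.41 CPM in KO LT-HSC, and 14.7 ± 0.489 CPM in WT MPP and 35.7 ± 0.721 CPM in WT LT-HSC. It fell in KO, by log2 fold changes of -0.30 ± 0.06 in MPP (adjusted p = 0.0019) and -0.23 ± 0.05 in LT-HSC (adjusted p = 0.00849), where Angpt1 was higher. Eif3e, a translation initiation factor gene beyond it with 1 region, rose in KO, by 0.30 ± 0.09 in MPP and 0.39 ± 0.09 in LT-HSC. On the other side, Oxr1 (0.07 ± 0.03 in MPP and 0.05 ± 0.03 in LT-HSC) and Abra (-0.02 ± 0.10 and 0.14 ± 0.10) did not pass. At Hgf, the calcium channel subunit gene Cacna2d1 did not pass between genotypes (-0.02 ± 0.05 in MPP and -0.04 ± 0.05 in LT-HSC) and was lower in MPP than in LT-HSC, at 41.1 ± 0.215 CPM in KO MPP and 54.2 ± 0.824 CPM in KO LT-HSC and 41.7 ± 3.50 CPM in WT MPP and 55.8 ± 1.65 CPM in WT LT-HSC. Gm28710 and Speer4f2 did not pass in any of these comparisons, and Speer4c, of a multigene family whose copies may share reads, fell in KO LT-HSC (-0.61 ± 0.17, adjusted p = 0.0216).

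The receptors of the 2 ligands went in different directions between the populations. Tek, the angiopoietin receptor gene, and Tie1, its co-receptor, were lower in MPP, with log2 fold changes of summed counts of -1.56 and -1.20 in KO and -1.60 and -1.17 in WT. Met, the receptor gene for HGF, was higher in MPP by 0.20 in KO and 0.20 in WT. Mst1r, the related receptor RON, was higher in MPP by 0.97 in KO and 0.93 in WT, and its ligand gene Mst1 was lower, with -0.27 in KO and -0.36 in WT. None of Tek, Tie1 and Met passed between genotypes in summed counts, with log2 fold changes of KO over WT of 0.13, -0.14 and -0.07 in MPP and 0.09, -0.11 and -0.07 in LT-HSC. Other ligand genes were lower in KO, where Angpt1 and Hgf were higher. Mst1 fell in KO LT-HSC (-0.27, adjusted p = 0.0287 in edgeR's quasi-likelihood test), as did Angpt2 (-0.35, adjusted p = 0.0171), which encodes an angiopoietin that can oppose Angpt1. Angpt4, another angiopoietin gene, fell in both populations (-0.21 in MPP, adjusted p = 0.0139, and -0.24 in LT-HSC, adjusted p = 0.00995). Mst1 and Angpt2 did not pass in MPP, at -0.19 and -0.16.

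The wider pathway lists were read by their counts, since they were drawn up with earlier results known. They are set beside the 5.12% of all tested regions that passed as higher and the 3.59% as lower in KO MPP, and the 3.27% and 1.47% in KO LT-HSC. In the angiopoietin and Tie list (7 genes, 74 regions), KO MPP had 2 higher and 2 lower regions, and KO LT-HSC had 3 higher and 0 lower. These are 2.7% and 2.7% of its regions in MPP and 4.05% and 0% in LT-HSC. Svep1, an extracellular matrix protein gene whose product binds Tie1, had a region at 7.59 CPM in KO LT-HSC and 5.31 CPM in WT LT-HSC, a rise of 0.53 ± 0.12 on the log2 scale (adjusted p = 0.00845, edgeR's quasi-likelihood test). A region at Dok2, an adaptor that binds activated Tie2, fell in KO MPP by 0.59, at 2.94 CPM in KO MPP and 4.41 CPM in WT MPP. Another, at Angpt4, fell in KO MPP by 0.57 (1.78 CPM in KO and 2.65 CPM in WT). In the HGF and MET list (12 genes, 104 regions), KO MPP had 8 higher and 3 lower regions, and KO LT-HSC had 3 of each, which is 7.69% and 2.88% in MPP and 2.88% each way in LT-HSC. Hpn, which encodes the HGF-activating protease hepsin, had a pair of regions that rose in KO MPP, by 0.54 (13.1 CPM in KO and 9.07 CPM in WT) and 0.50 (12.95 and 9.16 CPM), and another one that fell by 0.28 (17.5 and 21.1 CPM). A region at Plat, the tissue plasminogen activator gene, fell in KO LT-HSC by 0.79 (1.49 CPM in KO and 2.62 CPM in WT). Another Plat region rose there by 0.85 (0.909 and 0.496 CPM). A weak region at Met fell in KO LT-HSC by 2.52 (0.0607 and 0.411 CPM), and another rose in KO MPP by 1.09 (0.524 and 0.233 CPM).

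Among 14 shared adaptor and kinase genes (325 regions), 23 passed as higher and 1 as lower in KO MPP, and 19 and 0 in KO LT-HSC, which is 7.08% and 0.308% in MPP and 5.85% and 0% in LT-HSC. A region at Foxo3, a transcription factor held back by AKT, rose by 0.53 in MPP (17.3 CPM in KO and 11.9 CPM in WT) and by 0.29 in LT-HSC (15.1 and 12.3 CPM). A region at Stat5b rose by 1.01 in MPP (2.87 and 1.41 CPM), and one at Stat3 by 0.45 (20.3 and 14.9 CPM). Among 19 other genes of secreted factors of marrow and stem cells (256 regions), 13 passed as higher and 7 as lower in KO MPP, and 7 and 4 in KO LT-HSC, which is 5.08% and 2.73% in MPP and 2.73% and 1.56% in LT-HSC. A region at the Notch ligand gene Jag1 rose by 0.33 in MPP (29.5 CPM in KO and 23.5 CPM in WT) and by 0.36 in LT-HSC (60.0 and 46.9 CPM). A region at Kitl, the stem cell factor gene, rose in KO LT-HSC by 0.38 (17.3 and 13.3 CPM), and one at Spp1 by 0.55 (7.46 and 5.08 CPM). Vegfa had regions in both directions. In KO MPP, a Vegfa region fell by 0.52 (4.97 and 7.08 CPM) and another rose by 0.74 (1.26 and 0.762 CPM). In KO LT-HSC, other Vegfa regions rose by 0.29 and 0.21. The summed Vegfa value was 0.002 in MPP and 0.04 in LT-HSC.

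Genes with the most similar profile over the 12 libraries were found by the root mean square difference of log2 summed CPM, each gene centred on its own mean, among 10559 genes with at least 5 tested regions. For Angpt1 these were Vps45 (0.0484), Cggbp1 (0.0516), Fam91a1 (0.0527) and Lrba (0.0554), where the median gene differed by 0.24. Vps45 summed to 78.3 ± 1.62 CPM in KO MPP, 70.3 ± 3.96 CPM in WT MPP, 96.1 ± 4.16 CPM in KO LT-HSC and 91.9 ± 1.42 CPM in WT LT-HSC. For Hgf they were Cyp8b1 (0.0604), Samd8 (0.0682), Hbs1l (0.0704) and Gstp3 (0.0711), where the median gene differed by 0.354. Cyp8b1 summed to 38.05 ± 1.13 CPM in KO MPP, 33.3 ± 0.440 CPM in WT MPP, 24.4 ± 1.15 CPM in KO LT-HSC and 22.3 ± 1.32 CPM in WT LT-HSC. These genes lie on other chromosomes, except Fam91a1, which is on chromosome 15 as Angpt1 is. The libraries share depth and scaling, and a profile dominated by the population difference is shared by many genes.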

How the data were processed

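ATAC-seq read counts per accessible region of 12 libraries were deposited by the authors as raw counts, with no normalization. Tools used upstream, per the submitters' processing notes, were Bowtie2, cutadapt, featureCounts, MACS2 2.1.1 and DESeq2 1.22.1, with the build GRCm38; no source used here gives their settings. Columns were matched to samples by the labels' descriptions.

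The members, lists and named regions were chosen with earlier results of these data known. Named regions were those at gene ends, the 4 strongest per gene and those called between genotypes (6 at most). The 3 largest population changes per direction and the regions at the rule's edges were named too. Named genes were the 3 lowest p per list, neighbours and the 4 most alike, with Kitl, which came next after Spp1. Receptor and ligand genes of the lists were also named by their summed counts. Regions were assigned to 21900 protein-coding RefSeq genes. All regions were fitted in edgeR 4.0.16 (R 4.3.3) with 1 mean per group, TMM factors, filterByExpr (186373 of 188262 kept, all 104 members among them), the quasi-likelihood F test (2-sided) and Benjamini-Hochberg adjustment over all regions, threshold 0.05; counts summed per gene were fitted alike. SE is the log2 fold change over the square root of F. The scripts were tested on simulated data. With 3 libraries a group, the smallest p of an exact permutation test is 0.1, so none was used. Replicates are treated as separate mice on the labels' wording; otherwise p-values measure only the spread between libraries. Alternatives were DESeq2 1.42.0, RLE and total-count scaling, 2 other filters, the compared groups alone, replicate blocks, the gene-end share as a covariate, body overlap only, and leaving out each library.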

Additional observations from a re-analysis of the deposited data

How the results depend on the processing

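Over all regions, the calls between genotypes numbered 5614 in MPP and 1843 in LT-HSC when the share at gene ends was a covariate, against 16230 and 8834 without it, and those between populations in WT 86109 against 130002. That fit gave 5 Angpt1 and 4 Hgf regions in MPP, 0 at both genes in LT-HSC, and 33 Angpt1 regions in WT and 31 in KO between populations. It turned the population difference of Angpt1 region 8 in WT to 0.0396 (adjusted p = 0.957) and left the summed Angpt1 difference in KO at -0.13. DESeq2 and total-count scaling each called 2 Angpt1 regions in LT-HSC, and a minimum of 1 CPM in 3 libraries called 3, with 11 Hgf regions between populations in KO and a summed Angpt1 value in LT-HSC of 0.13 (adjusted p = 0.0519). Body overlap alone left Hgf 0 calls in LT-HSC, 3 in MPP, 3 between populations in WT and 2 in KO, with a median in WT of -0.11. Its summed values were 0.12 (Hgf) and 0.11 (Angpt1) in LT-HSC and 0.0397 for Hgf between populations in WT, and none of these passed. In most of these settings the cause was not tested; body overlap and the minimum keep fewer regions.

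The interaction called 67 regions with DESeq2, 27 with total-count scaling, 24 with the covariate, 48 with a replicate block by number and 233 with a block by genotype and number, against 15, and 0 at both genes in each. DESeq2 left 135049 regions without an adjusted p here, and these could not be called. Between KO and WT, libraries with the same number did not deviate together (correlations of deviations -0.037 to 0.0348). Between MPP and LT-HSC of 1 genotype, all 6 same-number pairs were positive (0.0579 to 0.121) and all 12 different-number pairs negative (-0.0822 to -0.00824), so each library correlated best with its own number. Deviations within a group sum to 0, so positive same-number values push the others below 0, and the 12 are not separate evidence. Most of these values are under 0.1 and the labels give no shared mouse or day for a number, so this is a hint from the data and the numbers were not taken as pairs.

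Leaving out 1 library gave 2 to 8 Angpt1 and 5 to 11 Hgf regions in MPP and 1 to 3 and 1 to 2 in LT-HSC, 6435 to 14169 and 3404 to 6586 over all regions, and 0 to 31 for the interaction. The summed values in LT-HSC ranged from 0.0781 to 0.17 at Angpt1 and from 0.10 to 0.18 at Hgf. Regions under 1 CPM rest on few reads, which limits what could be detected there.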
